A study of Mus musculus with 3 samples.

Results

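The chromatin examined here is what lies below the level at which a droplet barcode is counted as a nucleus. In each library of a mouse heart multiome experiment, the barcodes that carried at least 100 and under 500 fragments on chromosomes 1 to 19 and X were kept, and their fragments were pooled. A fragment is a piece of DNA cut out of open chromatin by the transposase Tn5, counted once per barcode. There were 42985 such barcodes in the vehicle library and 45280 in the sunitinib library, 88265 of the 586512 barcodes of both libraries, and none of them was a called nucleus. They held 7673829 fragments in the vehicle library (41.1% of its fragments on these chromosomes) and 7480473 in the sunitinib library (31.7%).

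The hearts came from wild-type mice, were snap-frozen, and gave nuclei for paired RNA and chromatin libraries. Of the 3 groups of the experiment, 2 are used here: a vehicle control and the multikinase inhibitor sunitinib, whose library carries the letters TKI (tyrosine kinase inhibitor) in its title. Both titles give 3 months, without saying whether this is an age or a length of treatment, and the dose, sex and number of hearts per library are not given in the sources used here. Each group is 1 library, so no test between the treatments was possible. Intervals below are 95% intervals that cover counting error only, and a difference between the libraries cannot be told apart from a difference between 2 preparations.

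Sunitinib blocks receptor tyrosine kinases of the VEGF and PDGF families together with Kit, Flt3, Csf1r and Ret, and it is known clinically for harm to heart muscle and small vessels. In droplet experiments, barcodes with few fragments are usually taken to hold free chromatin, debris, or nuclei that were damaged or poorly cut, and analyses set them aside. A pool of them has no cell identities, so a lower level of a cell type's genes can mean fewer fragments from that type or less open chromatin in each cell, and these cannot be told apart. Open chromatin gathers at transcription start sites, most of all at promoters rich in CpG, the dinucleotide at which vertebrate DNA is methylated. Genes used by 1 cell type often have promoters poor in CpG.

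The promoters of 6 genes show the 2 patterns that run through these data, and were chosen for this after their values were seen. Cd3d and Cd3e (chains of the T cell receptor complex) and Rag1 (a recombinase that cuts antigen receptor genes in immature lymphocytes) stand for T lineage genes. Pcna (the sliding clamp of DNA replication), Mki67 (a protein of dividing cells) and Piezo1 (a stretch-gated cation channel) stand for genes with CpG-rich promoters. Each sequence is the RefSeq promoter window of 300 bases in build GRCm38.p6 (mm10), written from 5′ to 3′ on the gene's own strand, with each CpG in capitals. The letters CG read the same on both strands, and 94.7% of all 32619 RefSeq windows of this length hold at least 1, with a median of 7.
Cd3d (chr9:44981536-44981835, plus strand): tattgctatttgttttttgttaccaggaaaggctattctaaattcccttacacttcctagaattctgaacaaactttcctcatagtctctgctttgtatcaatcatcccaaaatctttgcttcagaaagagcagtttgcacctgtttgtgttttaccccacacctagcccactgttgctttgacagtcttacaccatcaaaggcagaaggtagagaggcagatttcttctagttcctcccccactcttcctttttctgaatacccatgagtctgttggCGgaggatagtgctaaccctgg
Cd3e (chr9:45009562-45009861, minus strand): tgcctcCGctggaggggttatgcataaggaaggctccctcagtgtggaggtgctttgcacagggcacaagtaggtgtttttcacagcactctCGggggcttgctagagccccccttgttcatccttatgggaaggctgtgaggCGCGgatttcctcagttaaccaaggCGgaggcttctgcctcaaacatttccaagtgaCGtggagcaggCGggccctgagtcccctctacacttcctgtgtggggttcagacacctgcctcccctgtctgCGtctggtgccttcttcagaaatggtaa
Rag1 (chr2:101649483-101649782, minus strand): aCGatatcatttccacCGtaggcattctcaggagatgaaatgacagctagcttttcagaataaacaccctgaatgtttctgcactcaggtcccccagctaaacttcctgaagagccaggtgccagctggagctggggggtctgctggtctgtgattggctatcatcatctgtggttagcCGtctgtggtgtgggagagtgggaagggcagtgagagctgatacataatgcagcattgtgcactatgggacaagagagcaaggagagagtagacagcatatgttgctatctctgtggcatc
Pcna (chr2:132253131-132253430, minus strand): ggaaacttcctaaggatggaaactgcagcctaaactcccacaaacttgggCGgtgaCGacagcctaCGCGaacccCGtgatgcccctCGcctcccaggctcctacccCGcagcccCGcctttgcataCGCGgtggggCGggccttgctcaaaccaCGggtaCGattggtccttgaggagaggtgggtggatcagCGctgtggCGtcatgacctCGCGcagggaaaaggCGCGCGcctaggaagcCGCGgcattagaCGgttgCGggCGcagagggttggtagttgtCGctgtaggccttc
Mki67 (chr7:135716330-135716629, minus strand): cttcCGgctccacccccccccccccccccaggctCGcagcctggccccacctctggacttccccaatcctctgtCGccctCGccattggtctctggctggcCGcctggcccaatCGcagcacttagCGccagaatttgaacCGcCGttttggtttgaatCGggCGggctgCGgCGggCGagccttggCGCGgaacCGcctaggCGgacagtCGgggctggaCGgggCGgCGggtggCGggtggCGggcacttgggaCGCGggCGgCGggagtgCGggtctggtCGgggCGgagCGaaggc
Piezo1 (chr8:122551280-122551579, minus strand): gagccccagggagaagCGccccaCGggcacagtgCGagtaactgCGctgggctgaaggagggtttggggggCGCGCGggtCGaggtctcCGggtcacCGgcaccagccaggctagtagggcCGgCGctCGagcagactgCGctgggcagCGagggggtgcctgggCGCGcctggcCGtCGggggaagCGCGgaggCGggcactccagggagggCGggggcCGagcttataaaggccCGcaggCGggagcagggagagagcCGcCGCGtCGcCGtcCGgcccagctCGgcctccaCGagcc

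Over these windows the low-count barcodes gave the following fragments. The Cd3d window, with 1 CpG, held 24 fragments in the sunitinib pool and 4 in the vehicle pool. The Cd3e window, with 8 CpG, held 39 and 7. The Rag1 window, with 3 CpG, held 22 and 3. All 3 windows of T lineage genes were higher under sunitinib, and they were also higher in the called nuclei of the same libraries, with 54 against 4, 67 against 18, and 63 against 14 fragments. The Pcna window, with 26 CpG, held 133 and 83 fragments in the sunitinib and vehicle pools, which gives a log2 ratio of 0.71 (0.31 to 1.13). The Mki67 window, with 32 CpG, held 61 and 29, a log2 ratio of 1.10 (0.45 to 1.80). The Piezo1 window, with 34 CpG, held 62 and 40, a log2 ratio of 0.66 (0.07 to 1.28). In nuclei the log2 ratios over the windows of Pcna, Mki67 and Piezo1 were -0.03, -0.15 and -0.02, so these CpG-rich windows were higher under sunitinib in the low-count pools and not in the nuclei.

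The low-count barcodes formed a peak of their own in both libraries. The most filled bin of 10 fragments, from 50 fragments up, was at 150 to 160 fragments in the vehicle library (4886 barcodes) and at 140 to 150 in the sunitinib library (5884 barcodes). The median low-count barcode held 164 fragments under vehicle and 150 under sunitinib. Fragment ends within 50 bases of start sites, over those in flanks 2000 bases away, were enriched 8.44-fold in the vehicle pool and 11.1-fold in the sunitinib pool. Called nuclei (barcodes with at least 1000 fragments, enrichment of at least 4 and a ratio of nucleosome-length to shorter fragments under 4) stood at 18.7-fold and 18.6-fold. The pools thus lay below the nuclei in both libraries, and the sunitinib pool lay above the vehicle pool while the nuclei of the libraries were level. In every range of fragment number from 50 to under 1000, the sunitinib value was above the vehicle value, for example 10.5 against 8.44 at 100 to under 150 fragments and 13.4 against 10.2 at 300 to under 500. Just outside the range kept, enrichment was 12.2 and 10.2 at 50 to under 100 fragments and 17.5 and 15.6 at 500 to under 1000 (sunitinib first).

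**Figure D1:**
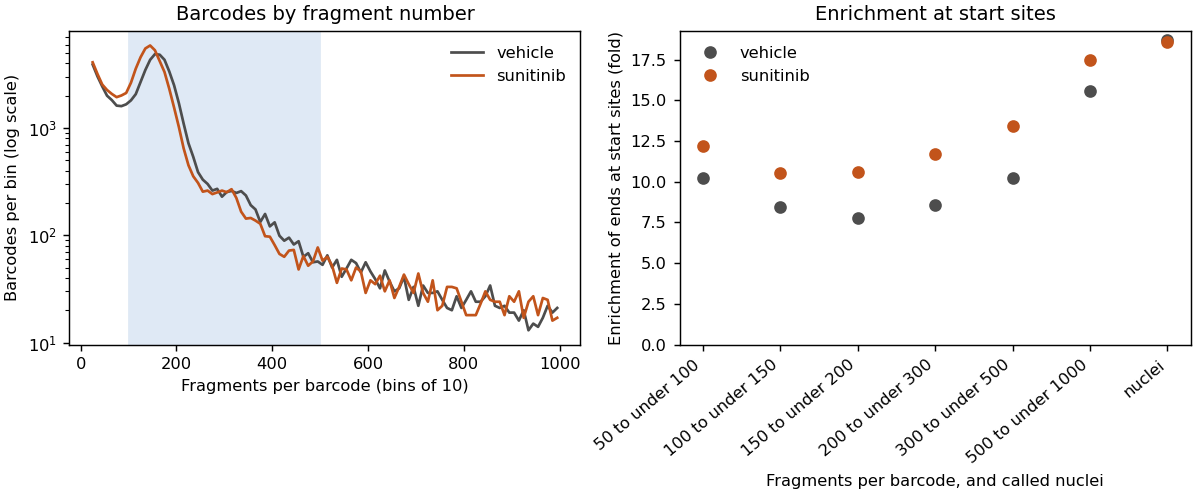
Left, number of barcodes (log scale) by fragments per barcode in bins of 10 for the vehicle (grey) and sunitinib (orange) libraries, with the low-count range shaded. Right, enrichment of fragment ends at start sites for each range of fragments per barcode and for called nuclei (1 library per point): sunitinib lies above vehicle in every range below the nuclei, where the points are at 18.6 and 18.7.

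The fragments of the low-count barcodes were also shorter and more spread out than those of nuclei. The median length was 87 bases under vehicle and 101 under sunitinib, against 174 and 175 in nuclei. Fragments shorter than the DNA of 1 nucleosome made up 64.8% of the vehicle pool and 61.4% of the sunitinib pool, against 38.1% and 38.6% in nuclei. Fragments within 1 kb of a start site made up 13.0% of the vehicle pool and 16.9% of the sunitinib pool, against 26.7% and 27.6% in nuclei. Fragments outside every protein-coding gene and its 2 kb upstream made up 43.7% and 41.0%, against 32.8% and 32.4%. By each of these measures the sunitinib pool lay closer to the nuclei than the vehicle pool did, and what in the preparations moved with this was not tested.

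**Figure D2:**
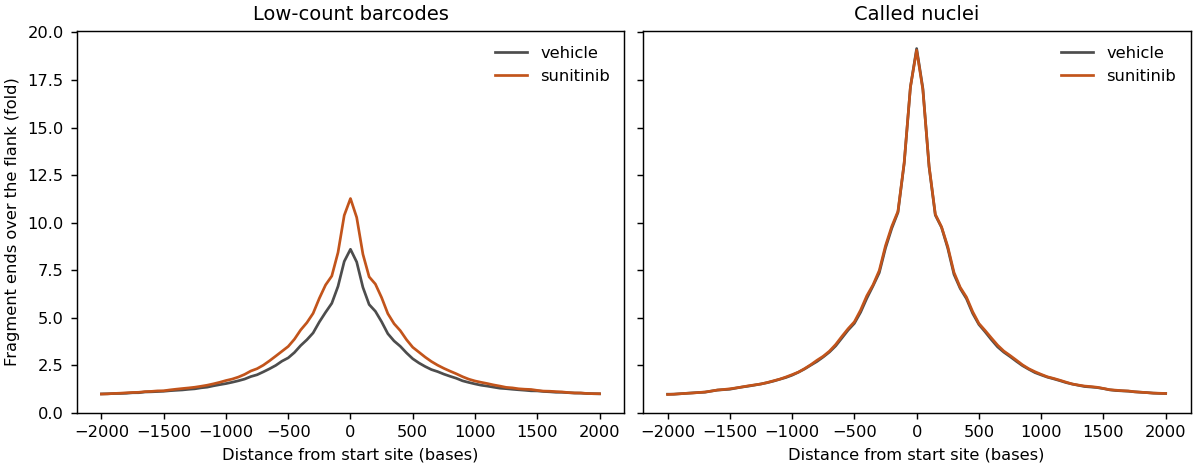
Fragment ends by distance from start sites in bases, divided by the level in the flanks, for low-count barcodes (left) and called nuclei (right) of the vehicle (grey) and sunitinib (orange) libraries. The sunitinib curve is the higher of the pair on the left, and the curves coincide on the right.

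The libraries shared some barcode sequences and some fragments. Low-count barcodes with the same sequence occurred in both libraries 3819 times (8.88% of those of vehicle and 8.43% of those of sunitinib). Of the 2681 vehicle nuclei, 534 (19.9%) carried a barcode that was low-count in the sunitinib library. Of the 3837 sunitinib nuclei, 619 (16.1%) carried one that was low-count in the vehicle library. How many barcodes would be shared by chance was not computed. Fragments with the same barcode, start and end in both libraries made up 3.20% of the vehicle pool (245870 fragments) and 2.57% of the sunitinib pool (192546). The results below are given with these fragments, and without them where marked. Their origin was not tested.

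Across genes, fragments were counted over the gene body and the 2 kb upstream, and divided by the fragments of the pool on chromosomes 1 to 19 and X. The log2 ratio is always sunitinib over vehicle in fragments per 1000000 fragments of the pool (CPM). Of 21728 protein-coding genes, 12714 were measured, meaning at least 200 fragments over both pools. Their median log2 ratio was 0.14 (quartiles -0.07 and 0.33), and 67.2% of them were above 0. The median was 0.12 over 10322 genes in barcodes of 100 to under 200 fragments and 0.05 over 3502 genes in those of 200 to under 500. Just outside the range kept it was -0.02 (499 genes at 50 to under 100 fragments) and -0.002 (1372 genes at 500 to under 1000). These medians are over unlike sets of genes, because the minimum of 200 fragments leaves fewer genes in a smaller pool. Whether the shift of the same genes changes between ranges was not tested. At least 1.5-fold higher under sunitinib were 757 genes (5.95%), and at least 1.5-fold lower 53 genes (0.417%). Relative to the median gene, 278 genes (2.19%) were higher and 158 (1.24%) lower by that factor. In nuclei the median was 0.02, with 299 of 14626 genes (2.04%) higher and 79 (0.54%) lower. Without the fragments found in both libraries, 777 (6.21%) and 52 (0.416%) of 12510 genes passed. Since the median gene is not at 0, most sums of markers are also given relative to it.

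The shift of the median gene went with how much of a gene's signal lay at its start sites. Genes were split into 5 groups of nearly equal size by fragments within 1 kb of their start sites as a share of their fragments in all. From the smallest share to the largest, the median log2 ratio in low-count barcodes was -0.11, 0.02, 0.15, 0.24 and 0.36. In nuclei it was -0.11, -0.03, 0.03, 0.04 and 0.05. The group with the smallest share had long genes (median window 129 kb) and 33 of the 757 higher genes, and the group with the largest share had short genes (median 12.6 kb) and 390 of them. Counted within 1 kb of start sites only, 1346 of 4259 measured genes (31.6%) were at least 1.5-fold higher and 1 (0.0235%) was lower, around a median of 0.48. Divided by all start-site fragments of each pool, 93 (2.18%) were higher and 74 (1.74%) lower, around a median of 0.10. So of the genes past 1.5-fold, the share that was higher went from 93.5% over gene bodies to 99.9% at start sites and 55.7% at start sites scaled by start-site fragments.

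The promoter windows showed the same by their sequence. The windows of 26794 genes, 1 per gene, were split into 5 such groups by their number of CpG, and the fragments over each group were summed. In the group with at most 2 CpG the log2 ratio was -0.02 (-0.06 to 0.03). With more CpG it was 0.17 (0.13 to 0.20), then 0.42 (0.40 to 0.44), then 0.53 (0.52 to 0.54), and 0.52 (0.51 to 0.53) in the group with at least 24 CpG. In nuclei the same sums gave -0.01, 0.06, 0.04, 0.05 and 0.04. The difference between the pools thus lay at promoters with more than a few CpG.

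**Figure D3:**
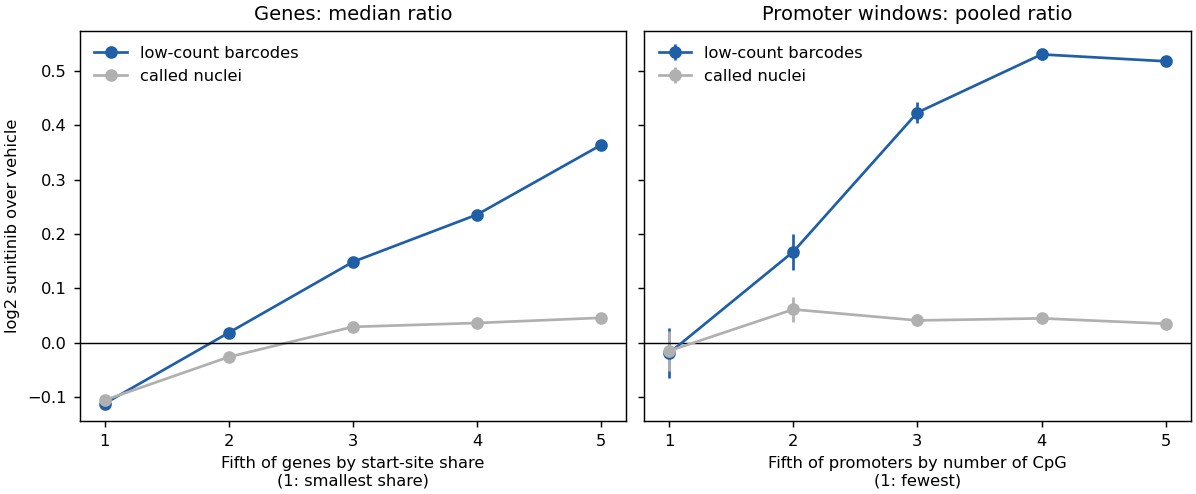
Log2 ratio of sunitinib over vehicle in low-count barcodes (blue) and called nuclei (grey). Left, median over genes in 5 groups by the share of fragments at start sites; right, summed fragments over promoter windows in 5 groups by number of CpG with 95% counting intervals: the blue line runs from -0.11 to 0.36 on the left and from -0.02 to 0.52 on the right, while the grey line ends at 0.05 and 0.04.

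The 15 highest genes by the bound of the interval nearest 0 included several of the T lineage. Cd3e was first, with 204 fragments in the sunitinib pool and 56 in the vehicle pool, or 27.3 and 7.30 CPM, a log2 ratio of 1.89 (1.47 to 2.36). Within 1 kb of its start site it had 79 and 15 fragments. Cd24a, a surface protein of immature blood cells, had 202 and 75 fragments and a log2 ratio of 1.46 (1.08 to 1.87). Cd27, a costimulatory receptor of lymphocytes, has a window that overlaps those of Vamp1 and Tapbpl. It had 167 and 66 fragments and a log2 ratio of 1.37 (0.96 to 1.81). These ratios are far above the median gene of 0.14, and in nuclei the same genes stood at 1.61, 1.05 and 0.84.

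Cd3d had 197 and 87 fragments (sunitinib, then vehicle), with a log2 ratio of 1.21 (0.84 to 1.60), and its window overlaps that of Cd3g. Gfi1, a repressor used in blood stem cells and lymphocytes, had 309 and 145 fragments and 1.13 (0.84 to 1.42). Tcf7, the transcription factor TCF-1 of early T cell development, had 670 and 340 fragments and 1.01 (0.83 to 1.21). B230118H07Rik, whose window covers Rag1 and Rag2, had 601 and 288 fragments and 1.10 (0.89 to 1.31). For each of these genes the sunitinib pool held about as many fragments again as the vehicle pool or more, and the log2 ratios of Gfi1, Tcf7 and B230118H07Rik in nuclei were 0.97, 0.99 and 0.92.

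The other highest genes are not T lineage markers by name. Aqp11, an intracellular water channel, had 261 and 110 fragments (1.28, from 0.96 to 1.62), but its promoter window held 16 and 22, so its excess lay outside that window. Spo11, a meiotic DNA-cutting enzyme, stood at 1.19, and Tapt1 at 1.09. Wdr78 stood at 1.04, with a window that overlaps Mier1. Slc6a19, a neutral amino acid transporter whose window overlaps Slc6a18, stood at 1.07. Gpr132, a G protein-coupled receptor of lymphocytes and macrophages, stood at 1.08 and Slc37a2 at 1.04. All 15 were above 0 in the nuclei of the same libraries (54.0% of all genes in nuclei). There 14 were at least 1.5-fold higher (2.04% of all genes in nuclei), the exception being Tapt1 at 0.57. The pools and the nuclei share libraries, so this is no independent repeat.

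The 15 lowest genes were lower by less, from -1.17 to -0.61. Lrrc75b had 68 and 158 fragments (sunitinib first), for a log2 ratio of -1.17 (-1.61 to -0.76), against -0.29 (-0.71 to 0.14) in nuclei. Its window overlaps that of Ggt1. Kctd8, an auxiliary subunit of GABA-B receptors, had 283 and 541 fragments, -0.90 (-1.11 to -0.69), and was the only 1 of the 15 also past 1.5-fold in nuclei (-0.76). Otx1, a homeobox factor of the forebrain, had 66 and 137 fragments and -1.01 (-1.46 to -0.58). Lrrc38, a subunit of BK potassium channels, had 74 and 148 fragments and -0.96 (-1.39 to -0.55). In nuclei Otx1 stood at -0.29 and Lrrc38 at -0.10.

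Among the lowest genes with more fragments, Pid1, an adaptor that binds lipoprotein receptors, had 552 and 866 fragments and -0.61 (-0.77 to -0.46). Prox1, the transcription factor that specifies lymphatic endothelium, had 192 and 311 and -0.66 (-0.93 to -0.39). Tll1, a metalloprotease of heart septum development, had 217 and 348 and -0.64 (-0.90 to -0.40). Kcnc2, a voltage-gated potassium channel of neurons, had 249 and 389 and -0.61 (-0.84 to -0.37). In nuclei these 4 genes were also below 0, at -0.45, -0.37, -0.47 and -0.31. The remaining lowest genes were Creg2 (-0.87), Gpr20 (-0.76), CK137956 (-0.74), Plekhd1 (-0.73), Slc13a2 (-0.72), Kndc1 (-0.63) and Frmpd2 (-0.62). In nuclei 13 of the 15 were below 0, while CK137956 stood at 0.17 and Slc13a2 at 0.08. Among all measured genes in nuclei 54.0% were above 0. The promoter windows of the 11 matched genes held few fragments, 51 and 61 in all, and 5 of the 11 were above 0, among them Prox1 with 13 and 9. Of the windows of all 26794 genes, 19352 were above 0. Equal counts in both pools give a ratio just above 0 (0.04), as for Plekhd1 and Tll1. The median share of fragments at start sites was 10.3% in the lowest 15 and 33.9% in the highest 15, against 31.7% over all genes, so the median of the lowest genes was well under that of all genes and the median of the highest lay near it.

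**Figure D4:**
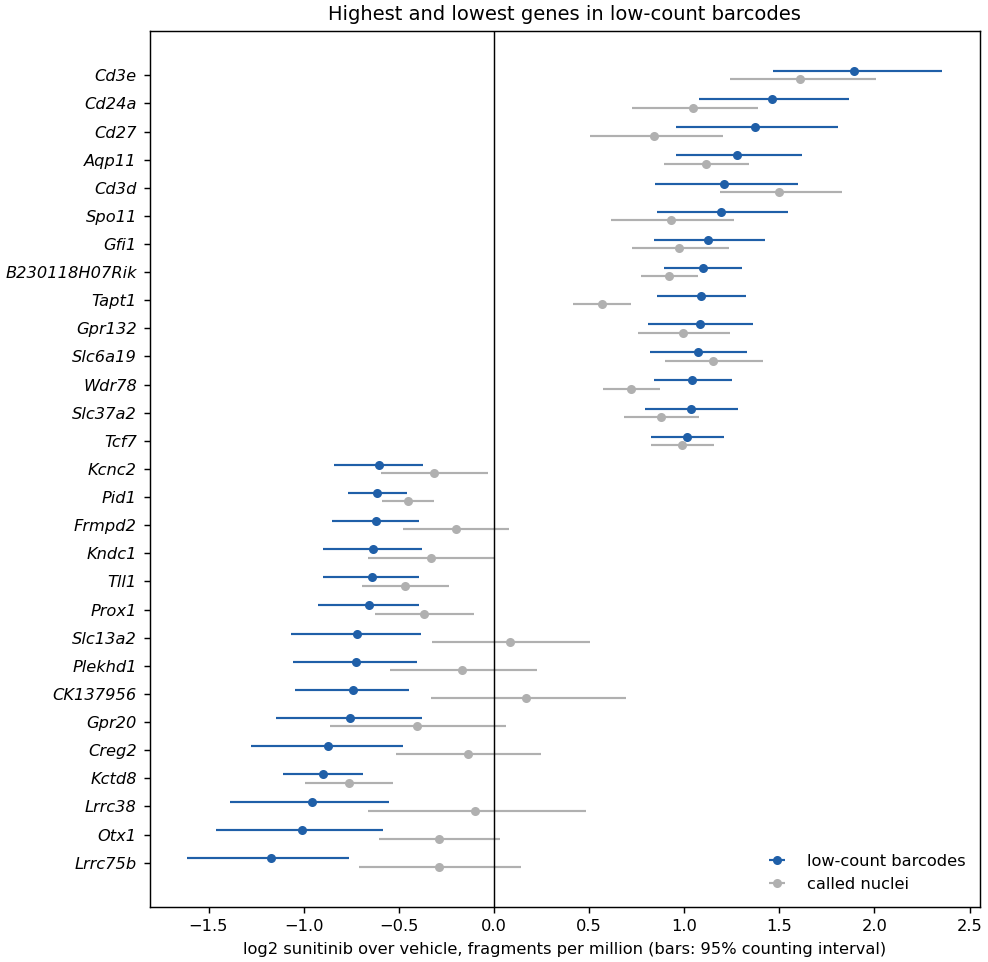
Log2 ratio of sunitinib over vehicle in CPM for 14 of the 15 highest genes and the 15 lowest, in low-count barcodes (blue) and called nuclei (grey), with 95% counting intervals. The highest genes plotted run from 1.01 (Tcf7) to 1.89 (Cd3e) and have nuclei values from 0.57 up, while most of the lowest genes lie nearer 0 in nuclei.

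Summed markers of 16 cell classes placed T lymphoid cells apart from the rest. The 14 T lymphoid markers held 5648 fragments under sunitinib and 3427 under vehicle, or 755 and 447 CPM, a log2 ratio of 0.76 (0.70 to 0.82). All 14 were above 0 (67.2% of all measured genes), from Themis, a T cell receptor signalling protein, at 0.51 to Cd3e at 1.89. Cd4 had 280 and 151 fragments (0.93), Cd8b1 231 and 121 (0.97), Cd8a 114 and 40 (1.54), and Lck, the kinase that starts T cell receptor signalling, 373 and 216 (0.82). Relative to the median gene the sum stood at 0.62, at start sites scaled by start-site fragments at 0.85 (0.69 to 1.02), and without the fragments found in both libraries at 0.77 (0.70 to 0.83). In nuclei it was 1.01 (0.95 to 1.06), so the low-count value was lower by 0.25 (interval of the difference -0.33 to -0.17).

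The T lymphoid level was nearly flat over the ranges of fragments per barcode kept here. Under sunitinib it was 769 CPM at 50 to under 100 fragments, 728 at 100 to under 150, 779 at 150 to under 200, 762 at 200 to under 300 and 759 at 300 to under 500. It was 930 at 500 to under 1000 and 902 in nuclei. Under vehicle it was 427, 475, 438, 453 and 414 over the same ranges up to 500, then 514, and 448 in nuclei. Per fragment of the pool, the vehicle pool and its nuclei had nearly the same T lymphoid level, and the sunitinib pool was below its nuclei. Scaled by start-site fragments and counted at start sites, the T lymphoid level was higher in the pool than in the nuclei in both libraries. The log2 ratio was 0.80 (0.61 to 0.98) under vehicle and 0.41 (0.30 to 0.52) under sunitinib. Most other marker classes were also higher in the pool on that scale, for example myeloid markers by 0.87 under vehicle and 0.70 under sunitinib. Only vascular endothelial markers (-0.11 and -0.30), and erythroid markers under sunitinib (-0.12), were lower. The rise is thus not particular to T lymphoid markers.

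Heart muscle markers were level between the pools in CPM and below the median gene. The 12 cardiomyocyte markers held 6531 fragments under sunitinib and 6566 under vehicle, or 873 and 856 CPM, a log2 ratio of 0.03 (-0.02 to 0.08). Ryr2, the calcium release channel of the sarcoplasmic reticulum, had 2098 and 2142 fragments (0.01), Ttn, the giant spring of the sarcomere, 1186 and 1292 (-0.09), Myh6, the main adult mouse myosin motor, 411 and 476 (-0.17), and Myl2, the ventricular regulatory light chain, 234 and 175 (0.45). Relative to the median gene the sum was -0.11, and at start sites scaled by start-site fragments -0.24 (-0.39 to -0.10). In nuclei it was -0.05 (-0.10 to -0.01).

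Vascular endothelial markers summed to 509 and 507 CPM, a log2 ratio of 0.01 (-0.06 to 0.07), or -0.13 relative to the median gene, against -0.08 in nuclei. Members moved apart: Flt1, the VEGF receptor 1, stood at -0.31 (755 and 962 fragments), Tie1, an orphan endothelial receptor, at -0.49 (132 and 190), Pecam1, an adhesion protein of endothelial junctions, at 0.38 (945 and 747), and Rgcc, a cell cycle regulator abundant in capillaries, at 0.59 (287 and 195). Endocardial markers stood at -0.13 (-0.19 to -0.08) and lymphatic endothelial markers at -0.31 (-0.41 to -0.22). Epicardial or mesothelial markers stood at -0.24 (-0.36 to -0.12), with 0 of 9 above 0 (67.2% of all measured genes). Relative to the median gene these 3 classes were at -0.27, -0.45 and -0.38. All 3 of these classes were below 0 in nuclei too, at -0.28, -0.16 and -0.35.

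Fibroblast markers lay on opposite sides of 0 in the pools and in the nuclei, with intervals that leave out 0 in both. They summed to 2551 and 2383 fragments, a log2 ratio of 0.14 (0.05 to 0.22), against -0.16 (-0.22 to -0.10) in nuclei. Much of the excess lay in Gsn, an actin-severing protein (604 and 453 fragments, 0.45), and Lamc1, a laminin chain (763 and 640, 0.29), both of which other cells express. Pdgfra stood at -0.18, Col1a2 at -0.18 and Dcn, a collagen-binding proteoglycan, at -0.37. Of the 12 markers 6 were above 0, against 67.2% of all measured genes. Relative to the median gene the sum was -0.001, and at start sites scaled by start-site fragments -0.35 (-0.51 to -0.19), so its sign depends on the scale.

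Of the other blood and nerve classes, B lymphoid markers stood at -0.19 (-0.26 to -0.12), or -0.33 relative to the median gene, against -0.20 in nuclei. Myeloid markers stood at 0.00, Schwann cell markers at -0.02, erythroid markers at -0.07 and platelet markers at -0.04, each with an interval that spans 0. Relative to the median gene they were at -0.13, -0.15, -0.21 and -0.17, so all 4 lay below it. Natural killer markers had few fragments, 263 and 278, and stood at -0.04 (-0.29 to 0.21) against 0.35 (0.13 to 0.59) in nuclei. Thymic epithelial markers stood at -0.14 (-0.26 to -0.03), with Foxn1, the factor that defines this epithelium, at 207 and 247 fragments. At start sites the thymic epithelial sum was on the other side of 0, at 0.32 (344 and 283 fragments), or -0.06 scaled by start-site fragments, and in nuclei it was 0.09 (-0.02 to 0.21). Hemoglobin genes were near 0, with 3 to 6 fragments each, and Ccl21a had none in either pool, which allows up to 3 fragments per pool.

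**Figure D5:**
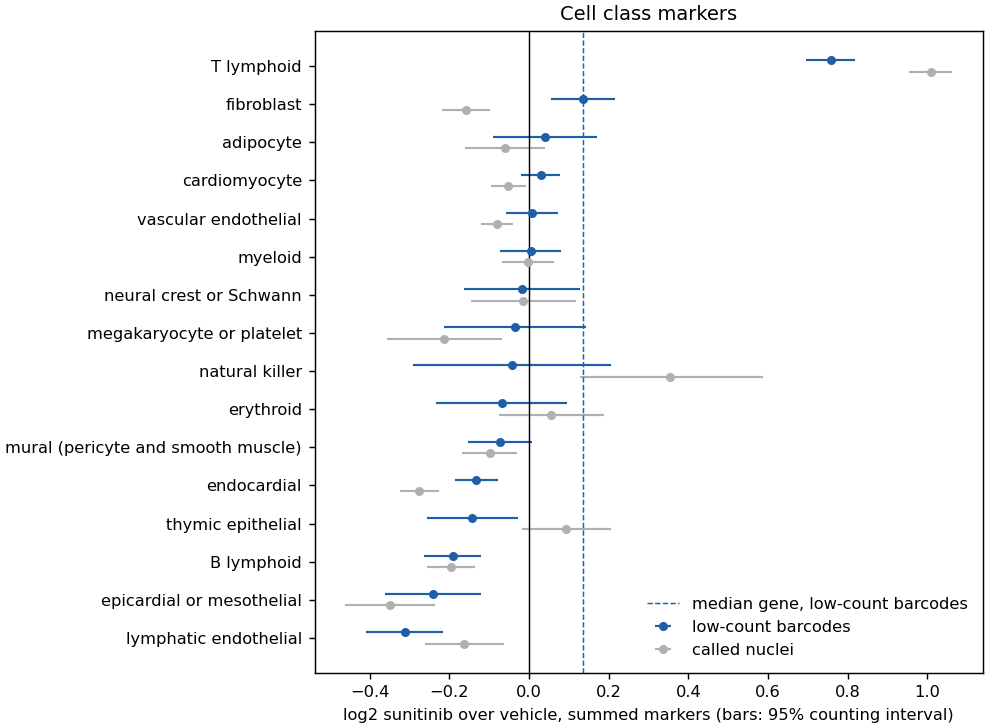
Log2 ratio of sunitinib over vehicle for summed marker fragments of 16 cell classes in low-count barcodes (blue) and called nuclei (grey), with 95% counting intervals. The dashed line is the median gene of the low-count barcodes at 0.14. The blue T lymphoid point lies far to its right at 0.76, and all other blue points lie at it or to its left. Of the grey points, T lymphoid (1.01) and natural killer (0.35) markers lie to its right.

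Within each library, the make-up of the low-count barcodes differed from that of the nuclei. Vascular endothelial markers were lower in the pool than in the nuclei by a log2 ratio of -0.99 under vehicle and -0.90 under sunitinib. Fibroblast markers were lower by -0.60 and -0.30. Cardiomyocyte markers were nearly level, at 0.05 and 0.13, and lymphatic endothelial markers were higher, at 0.60 and 0.45. At start sites scaled by start-site fragments, cardiomyocyte markers were higher in the pool by 0.74 under vehicle and 0.59 under sunitinib. Most classes were higher on that scale, for example thymic epithelial markers at 0.70 and 0.50, so this is not particular to heart muscle. Only vascular endothelial markers (-0.11 and -0.30), and erythroid markers under sunitinib (-0.12), were lower. Fibroblast markers were on the other side of 0 on that scale, at 0.18 (0.04 to 0.32) under vehicle and 0.11 (-0.03 to 0.24) under sunitinib.

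The T lineage lists followed the markers. Of 15 measured T lineage transcription factors, 14 were above 0 (67.2% of all genes) and 6 at least 1.5-fold higher (5.95% of all genes). Their median was 0.57, or 0.43 above the median gene, against a median of 0.63 in nuclei. Satb1, a chromatin organiser of thymocytes, had 628 and 356 fragments (0.85), Ikzf1, the lymphoid factor Ikaros, 627 and 374 (0.78), and Gata3, a factor needed for T cell commitment, 488 and 294 (0.77). Zbtb7b, the factor of the CD4 fate, stood at -0.04 with 567 and 598. Of 10 measured genes of antigen receptor recombination and thymocytes, all were above 0 and 4 were past 1.5-fold, with a median of 0.51 against 0.99 in nuclei. Dntt, the polymerase that adds bases at receptor joints, had 259 and 150 fragments (0.82), and Sox13 was lowest at 0.02. Rag2 with 138 and 56 fragments (1.33) and Rag1 with 113 and 48 (1.26) were under the minimum for measured genes.

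Lists of cell cycle, ribosomal protein and oxidative phosphorylation genes also had medians above the median gene. The share of all measured genes above 0 was 67.2%. Of 19 measured cell cycle genes 17 were above 0, with a median of 0.34, or 0.20 above the median gene. Pcna was highest with 216 and 117 fragments (0.92), and Ccnd2, a G1 cyclin, lowest at -0.02. All 12 measured ribosomal protein genes were above 0, with a median of 0.39, from Rpl10a at 0.04 to Rpl3 at 0.67. Of 17 measured oxidative phosphorylation genes 16 were above 0, with a median of 0.28, from Sdhc, a subunit of complex II, at -0.13 to Uqcrc2, a subunit of complex III, at 0.68. Their medians in nuclei were 0.08, 0.06 and 0.00. At start sites scaled by start-site fragments, and relative to the median gene on that scale, the medians were 0.08 for cell cycle, -0.002 for ribosomal protein and -0.09 for oxidative phosphorylation genes, over 9, 7 and 5 genes. On that scale these lists lay within 0.09 of the median gene.

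Hypoxia genes had a median of 0.41, or 0.27 above the median gene, with 11 of 12 measured genes above 0 (67.2% of all genes) and 3 at least 1.5-fold higher (5.95% of all genes). P4ha1, a collagen prolyl hydroxylase subunit induced by low oxygen, had 448 and 262 fragments (0.81), Egln3, an oxygen-sensing hydroxylase, 296 and 196 (0.63), Hif1a, the oxygen-regulated transcription factor, 347 and 250 (0.51), and Arnt, its partner, 261 and 281 (-0.07). In nuclei the list's median was 0.02, with P4ha1 at 0.44 and Hif1a at 0.07. Scaled at start sites the list stood 0.12 above the median gene over 8 genes. Glycolysis genes had a median of 0.17 and fatty acid oxidation genes 0.18, each within 0.05 of the median gene. Ldhb, a lactate dehydrogenase subunit, was the highest glycolysis gene at 0.60 and Eno3, a muscle enolase, the lowest at -0.09. Etfa, an electron carrier, was the highest fatty acid oxidation gene at 0.58 and Cpt1b, the muscle carnitine transferase, among the lowest at -0.15.

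Heart muscle lists lay below the median gene over gene bodies. Among all measured genes 67.2% were above 0. Of 18 measured sarcomere genes 12 were above 0 but 3 above the median gene, with a median of 0.04, from Myh6 at -0.17 to Myl2 at 0.45. Calcium handling genes had a median of -0.00, from Cacnb2, an L-type channel subunit, at -0.13 to Itpr2, an IP3 receptor, at 0.19, and at start sites their median lay 0.05 above the median gene over 5 genes. Cardiac ion channels had a median of -0.12 with 4 of 17 above 0; Kcnh2, the hERG potassium channel, was highest at 0.51 (646 and 465 fragments) and Cacna1h, a T-type calcium channel, lowest at -0.35. Core cardiac transcription factors had a median of -0.12 with 3 of 12 above 0, from Prdm16 at -0.30 (1989 and 2518 fragments) to Mef2a at 0.41, against -0.37 in nuclei, where Gata4 stood at -0.50 and in the pools at -0.01. Of the fetal and stress genes, Fhl1 was lowest among measured genes at -0.45 and Xirp2 highest at 0.27. Of the 67 measured genes of these muscle lists 0 were past 1.5-fold in either direction, against 5.95% of all genes higher and 0.417% lower. That share varies with the share of fragments at start sites. In the group with the smallest share 33 of 2543 genes were at least 1.5-fold higher, and in the group with the largest 390 of 2543. Whether the muscle genes differ from genes of like share was not tested.

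The lists furthest below the median gene were those of matrix, of the stretch-responsive YAP pathway and of brain synapses. For comparison, 67.2% of all measured genes were above 0. All 13 measured extracellular matrix genes were below 0, with a median of -0.17, or -0.30 relative to the median gene, from Col6a1 at -0.47 to Col1a1 at -0.04. In nuclei the list's median was -0.27. Of 12 measured YAP and TEAD genes 11 were below 0, with a median of -0.15, from Tead4 at -0.43 (431 and 596 fragments) to Lats2, a kinase that restrains YAP, at 0.05. Brain synapse genes, which are closed in heart and serve as a measure of background, had a median of -0.18 with 1 of 15 above 0 and Gria1 lowest at -0.31. Over gene bodies in the pools, the 3 medians lay within 0.03 of each other. In nuclei the YAP list stood at -0.27 and the synapse list at -0.14.

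Of the 9 kinases that sunitinib blocks, 8 lay below the median gene, while 4 were above 0 (67.2% of all genes) and 5 below. Flt3, a receptor of blood progenitors, was highest, with 380 and 253 fragments in the sunitinib and vehicle pools, which gives a log2 ratio of 0.62 (0.39 to 0.86), against 0.88 in nuclei. Flt1 had 755 and 962 fragments, -0.31 (-0.45 to -0.17), and Csf1r, the receptor that macrophages need, 165 and 214, -0.34 (-0.64 to -0.04). Pdgfra (296 and 344, -0.18), Pdgfrb, the pericyte receptor (316 and 367, -0.18), Flt4, the lymphatic VEGF receptor (297 and 328, -0.11), Kdr, the main VEGF receptor of vessels (304 and 304, 0.04), Kit, the stem cell factor receptor (358 and 354, 0.05), and Ret, a receptor of neural crest cells (292 and 276, 0.12), had intervals that span 0. The median of the 9 was -0.11, or -0.24 relative to the median gene, and 1 was at least 1.5-fold higher (5.95% of all genes). Except for Pdgfra at 47.7%, their shares of fragments at start sites ran from 5.21% (Flt3) to 19.7% (Kdr). Over all measured genes, the groups with the smallest and next smallest shares (up to 24.5%) had medians of -0.11 and 0.02. Whether the kinases differ from genes of like share was not tested. In nuclei 8 of the 9 were below 0, all but Flt3, while 54.0% of all measured genes there were above 0.

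Piezo1 was level over its gene, with 842 and 879 fragments and a log2 ratio of -0.03 (-0.16 to 0.11), against -0.02 in nuclei. Within 1 kb of its start sites it had 166 and 89 fragments, a log2 ratio of 0.93, or 0.55 once scaled by start-site fragments. The promoter window printed above held 62 and 40 of these fragments, and 104 and 49 lay outside it. Of the other stretch-gated and related channels, Piezo2 stood at -0.37 (750 and 996), Pkd2, a ciliary cation channel, was lowest at -0.48, and Pkd1, its partner, highest at 0.23 of 15 measured.

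Among the remaining lists, Tgfbr1, a TGF-beta receptor, was the highest TGF-beta gene at 0.55 (402 and 281 fragments) and Tgfb2, a ligand, the lowest at -0.49 (263 and 379). Vegfb, a VEGF ligand, stood at 0.57 and Tie1 at -0.49 in the VEGF, angiopoietin and Notch list, whose median was 0.01. In the glucocorticoid and FOXO list Cdkn1b, a cell cycle inhibitor, had 227 and 123 fragments (0.92) and Zbtb16 1680 and 1939 (-0.17). Trp53inp1, a p53 target, was highest among apoptosis genes at 0.78, and Bcl2, which holds cells back from death, lowest at -0.15. Ppargc1a, the coactivator of mitochondrial biogenesis, was lowest among mitochondrial genes with 274 and 413 fragments (-0.55), and stood at -0.76 in nuclei, while Tfb2m, a mitochondrial transcription factor, was highest at 0.47. Of the clock genes, Cry1, a clock repressor, stood at 0.40, and Hlf was lowest at -0.07. Bst2, an interferon-induced membrane protein, stood at 0.94 in the pools (131 and 70 fragments) and at -0.03 in nuclei, and Cxcr4, a chemokine receptor of progenitors and lymphocytes, at 0.88 and 0.53. The lowest of their lists were Oas2, an antiviral enzyme, at -0.17 and Cxcl12, the ligand of Cxcr4, at -0.22. AMPK genes ran from Acaca, a target in fatty acid synthesis, at -0.06 to Prkab2, a regulatory subunit, at 0.41, and autophagy genes from Tfeb, the lysosomal transcription factor, at -0.15 to Bnip3, a mitophagy receptor, at 0.54.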

How the data were processed

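The deposited files list, for each barcode, the position of every unique fragment and its count of read pairs, which the authors' processing with cellranger-arc 2.0.0 on mm10 made, per the file headers; the submitters' processing notes also name Signac. The libraries held 18704581 (vehicle) and 23653823 (sunitinib) fragments. Low-count barcodes had at least 100 and under 500 fragments on chromosomes 1 to 19 and X. Fragments overlapping GENCODE M21 protein-coding genes plus 2 kb upstream were counted per pool with Python 3.11.15, divided by the pool's fragments, and compared as log2 ratios with 0.5 counts added and conditional exact 95% intervals, which cover counting error only. Genes with at least 200 fragments in all and 30 expected in each pool were measured. Called nuclei were used without a step to remove doublets. With 1 library per group no test was made. The counting and intervals were tested on simulated data. The members, gene lists and markers were chosen with earlier results of these data known. Named genes are the 15 highest and 15 lowest autosomal genes by the interval bound nearest 0. Only genes with the same direction at 100 to under 200 and 200 to under 500 fragments were ranked. A gene whose window overlapped that of 1 already taken was skipped. The windows of 6 of the 15 highest and 1 of the 15 lowest overlap other protein-coding genes, and fragments there may belong to either gene. Then follow Piezo1, the 9 kinases sunitinib blocks, and the highest and lowest measured member of each of 28 lists. Others were added to show a list's range after their values were seen. Some genes this rule names are not reported here. Of all listed genes, 2 were not in the annotation. Promoter windows came from RefSeq (GRCm38.p6), of which 9 of the 15 highest and 11 of the 15 lowest genes were matched. For a gene with several windows, the window with most low-count fragments was used. The library that combined sunitinib with Yoda1 was not analysed here. Alternatives are in the closing section; start-site scaling, the ranges next to the low-count range and the removal of fragments found in both libraries were added after the data were seen.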

Additional observations from a re-analysis of the deposited data

How the results depend on the processing

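No paired analysis was possible because each group is 1 library. The 757 higher and 53 lower of 12714 measured genes became 278 and 158 relative to the median gene. Scaled by intergenic fragments they were 1408 and 17 of the same genes. The numbers were 1264 and 304 of 17457 at a minimum of 50 fragments, and 187 and 8 of 5680 at a minimum of 500. Within 1 kb of start sites they were 1346 and 1 of 4259. They became 375 and 25 of 8991 with fragments shorter than a nucleosome, and 93 and 74 of 4259 with start sites scaled by start-site fragments. With barcodes of 200 to under 500 fragments they were 145 and 32 of 3502. At 50 to under 100 fragments they were 4 and 2 of 499 measured genes, and at 500 to under 1000 fragments 48 and 23 of 1372. The number of measured genes differs between these settings, so the counts alone cannot be compared.

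The T lymphoid sum (0.76) stayed above 0 under all 14 alternatives: 0.62 relative to the median gene, 0.85 scaled by intergenic fragments, 1.23 at start sites, 0.85 at start sites scaled, 0.57 with short fragments, 0.85 at 50 to under 100 fragments and 0.86 at 500 to under 1000. The cardiomyocyte sum (0.03) was -0.11, 0.12, 0.14 and -0.24 under the first 4 of these and 0.095 at 200 to under 500 fragments. The vascular endothelial sum (0.01) was -0.13, 0.10, 0.11 and -0.27, with -0.14 at 50 to under 100 and -0.082 at 500 to under 1000 fragments. The fibroblast sum (0.14) was 0.23 scaled by intergenic fragments and 0.030 at start sites, and changed sign relative to the median gene (-0.0011), at start sites scaled (-0.35) and at 500 to under 1000 fragments (-0.28). Thymic epithelial markers changed sign at start sites (0.32).

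Medians of gene lists relative to the median gene stayed within the counting error of the list in 278 cases, moved further in 98, and in 12 changed sign from a value larger than that error. Scaling by the median gene or by intergenic fragments cannot change these medians, so those cases are among the 278 by construction. At start sites the medians are the same with and without scaling, so each start-site case enters the counts under both settings. In all, 35 of the 388 medians changed sign, in 13 lists, 18 of them at start sites, with values from -0.12 (fatty acid oxidation at start sites) to 0.051. The 12 were calcium handling at start sites (0.051 with or without scaling) and with short fragments (0.020), also at start sites, scaled or not, oxidative phosphorylation (-0.087), the clock (-0.065), chemokines (-0.0018) and ribosomal proteins (-0.0020), and the VEGF, angiopoietin and Notch list at 200 to under 500 fragments (0.045). Hypoxia had the highest median outside the T lineage as reported and in 6 of 14 alternatives, while ribosomal proteins led in 5. The 6 include both scalings that cannot change the medians, and start sites counted with and without scaling. The cause of the changes in sign and rank was not tested, and start-site windows also leave fewer measured genes. Depth limits single genes: with 74 and 148 fragments, the interval of Lrrc38 ran from -1.39 to -0.55.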

Other observations

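Some genes stood apart between the low-count pools and the nuclei of the same libraries, which were chosen after their values were seen and carry no test. The median gene was higher in the pools than in the nuclei by 0.13 on the log2 scale. Among the 12 genes furthest above were Cdk2ap2, a cyclin-dependent kinase regulator (0.63 in the pools and -0.43 in nuclei), Acat2, a thiolase of lipid metabolism (0.99 and -0.12), Rassf7 (0.93 and -0.17), Ftl1, the ferritin light chain (0.79 and -0.16), Hnrnpa1, an RNA-binding protein of splicing (0.85 and -0.00), and H3f3a, which encodes histone H3.3 (0.79 and -0.01). In these 12 genes the median share of fragments at start sites was 75.4%, against 31.7% over all genes compared.

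Among the 12 genes furthest below were Themis (0.51 in the pools and 1.32 in nuclei), Cd226, an adhesion receptor of T and natural killer cells (200 and 174 fragments in the pools, 583 and 162 in nuclei, sunitinib first), Galnt6, a glycosyltransferase (0.12 and 1.22), St8sia1, a ganglioside synthase (0.48 and 1.25), and Morc1, a germ cell chromatin protein (-0.01 and 0.82). Their median share of fragments at start sites was 6.76%. Galnt6 had 313 fragments under sunitinib and 295 under vehicle in the pools, and 541 and 148 in nuclei.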
